A study of Mus musculus with 6 samples.

Results

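The interferon-induced transmembrane genes Ifitm1, Ifitm2 and Ifitm3 were examined in Treg cells, regulatory CD4 T cells that hold back immune reactions. All probe sets listed under the 3 symbols were taken: 3 probe sets, 1 for each gene, of 34958 probe sets that carried a single gene, or 3 of 18194 measured genes. They were chosen by their measured rise in Foxo1 knockout against wild-type cells, so those values are given as a description without a test. Cells of C57BL/6 mice, sorted by flow cytometry, were measured on 6 oligonucleotide arrays in 4 groups. WT cells (wild type) and Foxo1KO cells (Foxo1 knockout) had 2 arrays each. Foxo1AAA cells, from mice with a constitutively active form of the transcription factor Foxo1, had 1 array. Foxo1KO/Foxo1AAA cells, from knockout mice with that active form, had 1 array. All groups were labelled nTreg and no group carried an added agent. The promoter that drives the deletion or the active form, the deleted part of Foxo1, the ages and sexes of the mice and any pooling are not stated in the sources used here. The labels do not say how the 2 arrays of a group differ in animals, and the p-values reflect the spread between those arrays.

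Ifitm proteins are small membrane proteins of the dispanin (CD225) family. They sit in the plasma membrane or in endosomal and lysosomal membranes, and they hinder the fusion of enveloped viruses with the membranes of the host cell. Ifitm3 acts mainly in endosomes and Ifitm1 largely at the cell surface. Interferons of type I and interferon gamma induce these genes in many cell types, through STAT and IRF factors that bind interferon-stimulated response elements and gamma-activated sites. In T cells Ifitm genes are also expressed outside viral infection, and their levels differ between states of activation. Foxo1 is a forkhead transcription factor that Akt moves out of the nucleus, and the active form resists this.

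The 3 genes lie side by side on mouse chromosome 7, in the order Ifitm2, Ifitm1, Ifitm3, between Ifitm5 and Ifitm6. Because they moved together on the arrays, the 250 bases before the annotated start of each are shown here, from RefSeq (GRCm38.p6), 5′ to 3′ on the strand of the gene. Capitals mark the single match in these stretches to any of 3 searched motifs. Ifitm1 spans chr7:140967826-140968075 on the plus strand, and Ifitm2 (chr7:140955962-140956211) and Ifitm3 (chr7:141010745-141010994) are on the minus strand. The stretches of Ifitm1 and Ifitm2 lie inside the annotated spans of these genes, which reach further upstream, and whether they are exonic or intronic in longer transcripts was not examined.
Ifitm1: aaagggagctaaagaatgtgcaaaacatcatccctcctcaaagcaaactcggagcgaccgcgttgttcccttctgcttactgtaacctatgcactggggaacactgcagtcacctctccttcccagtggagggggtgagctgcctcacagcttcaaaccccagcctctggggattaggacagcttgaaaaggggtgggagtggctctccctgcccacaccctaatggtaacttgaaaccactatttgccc
Ifitm2: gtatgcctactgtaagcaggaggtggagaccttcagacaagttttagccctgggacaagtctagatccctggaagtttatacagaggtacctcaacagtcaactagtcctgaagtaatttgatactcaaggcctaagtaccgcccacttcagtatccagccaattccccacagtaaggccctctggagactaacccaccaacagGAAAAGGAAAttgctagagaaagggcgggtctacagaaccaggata
Ifitm3: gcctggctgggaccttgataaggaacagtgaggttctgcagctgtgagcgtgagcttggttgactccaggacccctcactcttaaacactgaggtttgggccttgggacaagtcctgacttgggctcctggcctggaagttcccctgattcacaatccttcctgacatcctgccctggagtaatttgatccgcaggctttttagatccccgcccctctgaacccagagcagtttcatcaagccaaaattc

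The motifs were the interferon-stimulated response element (GAAA, any 2 bases, GAAA), the gamma-activated site (TTCNNNGAA, which reads the same on both strands) and the Foxo site (GTAAACA). Both strands were searched from 250 bases before to 50 after each start. The response element matched in Ifitm2 at positions -46 to -37, and in Ifitm3 at 3 to 12 and at 20 to 29 after the start, but not in Ifitm1. It was found in 3.44% of all 32851 windows of this length. By gene, it was found for 3.99% of all genes and for 14 of 28 genes of a type I interferon response list that had a window. For an interferon gamma response list it was found for 10 of 18 genes. The gamma-activated site matched in Ifitm3 at 14 to 22, overlapping the second response element, and was found in 8.3% of windows. By gene, that site was found for 9.55% of all genes, 6 of 28 type I genes and 8 of 18 interferon gamma genes. The Foxo site matched once, in Ifitm1 at 35 to 41 after the start, and was found in 3.65% of windows. The matched letters after the start are given in capitals with up to 10 bases on either side for 1 response element and the Foxo site, because they lie outside the stretches above. A match is a description of letters and shows no binding.
Ifitm3, response element at 3: caaaattcagGAAAAGGAAActtctgagaa
Ifitm1, Foxo site at 35: acaccaaattGTAAACAtaaggaagt

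Values are log2 RMA values, on which a difference of 1 is a doubling. The median gap of a gene between replicates was 0.10 for WT and 0.11 for Foxo1KO. Cd3e, Cd4, Il2ra and Ikzf2, which mark Treg cells, lay between 9.28 and 13.63 on the 6 arrays, whereas the probe set of Foxp3 read 5.10 to 5.58, near the lowest mean tested. Nrp1, which marks Treg cells that arise in the thymus, read 12.45 and 12.34 in WT, 9.30 and 9.07 in Foxo1KO, and 12.45 and 12.30 on the arrays with Foxo1AAA, and fell by 3.21 in Foxo1KO (limma adjusted p = 6.6e-07). Of the 7 tested Treg markers 1 was called higher in Foxo1KO, Ctla4 (0.46), and 2 lower, Nrp1 and Cd4 (-0.37), where 21.8% of all genes were called. The calls of Ctla4 and Cd4 ended with a replicate block (limma adjusted p = 0.055 and 0.052) and without WT replicate 2 (0.24 and 0.080) or either Foxo1KO replicate (0.068 and 0.23, and 0.066 and 0.089), and that of Cd4 also without WT replicate 1 (0.074) and with the mean of its probe sets (0.16). Foxo1 itself was 11.03 and 11.35 in WT, 10.87 and 10.65 in Foxo1KO, 10.71 in Foxo1AAA and 9.66 in Foxo1KO/Foxo1AAA. The deleted part is not known, so this is no measure of how complete the deletion was. Xist, made from the inactive X chromosome, read 12.03 to 13.43 on the WT and Foxo1KO arrays but 6.04 and 6.27 on the 2 arrays with Foxo1AAA. Eif2s3y, on the Y chromosome, read 3.91 and 10.09 in WT, 4.05 and 9.91 in Foxo1KO, and 10.59 and 10.56 on the arrays with Foxo1AAA. The 2 arrays of WT, and those of Foxo1KO, thus did not hold cells of the same animals alone: replicate 1 had Xist without Eif2s3y and replicate 2 had both. The absence of Xist-expressing cells and the presence of Foxo1AAA cannot be told apart. Between replicates with and without Eif2s3y the 3 Ifitm genes differed by 0.05 to 0.26.

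Each of the 3 genes was highest in Foxo1KO and lowest in WT, with both arrays that carried Foxo1AAA between them. Ifitm1 read 7.17 and 7.28 in WT, 10.99 and 11.09 in Foxo1KO, 8.20 in Foxo1AAA and 8.99 in Foxo1KO/Foxo1AAA. The 2 Foxo1KO arrays stood above the other 4. The genes were chosen by their rise in Foxo1KO over WT, so nothing is read from this separation. Ifitm2 read 6.13 and 6.08 in WT, 9.90 and 10.15 in Foxo1KO, 6.73 in Foxo1AAA and 7.61 in Foxo1KO/Foxo1AAA. The groups stood in the same order here. Ifitm3 read 7.06 and 6.82 in WT, 10.63 and 10.78 in Foxo1KO, 8.71 in Foxo1AAA and 9.18 in Foxo1KO/Foxo1AAA. Its values on both arrays with Foxo1AAA lay nearer to each other than to either WT or Foxo1KO. The order Foxo1KO, Foxo1KO/Foxo1AAA, Foxo1AAA, WT held for each gene.

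**Figure D1:**
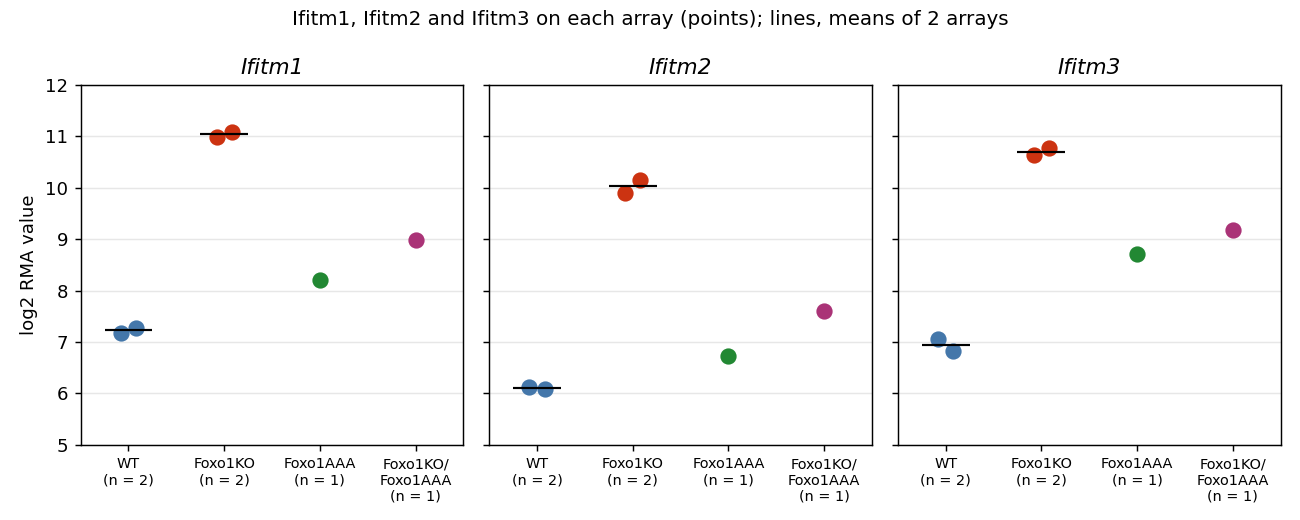
Log2 RMA values of Ifitm1, Ifitm2 and Ifitm3 (panels) on each of the 6 arrays (points), by group, with lines at the means of groups of 2 arrays. In each panel the Foxo1KO arrays are highest, from 9.90 upwards, the WT arrays are lowest, at 7.28 or less, and the 2 single arrays lie between.

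In Foxo1KO, Ifitm1 was 14.1-fold higher than in WT (7.22 ± 0.07 in WT and 11.04 ± 0.07 in Foxo1KO, SD, n = 2 each), a log2 difference of 3.82. Ifitm2 was 15.2-fold higher (6.10 ± 0.04 and 10.03 ± 0.18, SD, n = 2 each), a difference of 3.92. Ifitm3 was 13.6-fold higher (6.94 ± 0.17 and 10.70 ± 0.10, SD, n = 2 each), a difference of 3.77. The gaps between replicates of these genes ranged from 0.05 to 0.26, far below the differences. Of all 13645 tested genes, ordered by this difference from the largest rise down, Ifitm2 ranked 8, Ifitm1 10 and Ifitm3 11. By comparison, 21.8% of tested genes were called different in either direction and 11.2% were called higher. These values chose the genes and nothing is read from them. All 3 genes passed the filter on dim genes, and their WT means also lay above its lowest mean of 5.47. Ifitm2 in WT lay below the median probe set of those arrays (6.36 and 6.40). Array values flatten near background, so its fold may be understated.

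The design asks whether expression in the knockout returns towards WT when active Foxo1 is present. Ifitm2 was 5.33-fold lower in Foxo1KO/Foxo1AAA than in Foxo1KO, a log2 difference of -2.41 (SE 0.14). Ifitm1 was 4.15-fold lower (-2.05, SE 0.12) and Ifitm3 2.88-fold lower (-1.53, SE 0.14). On the log2 scale this covered 61.5% of the knockout difference for Ifitm2, 53.8% for Ifitm1 and 40.6% for Ifitm3. The genes remained above WT on the Foxo1KO/Foxo1AAA array, 2.85-fold for Ifitm2, 3.39-fold for Ifitm1 and 4.72-fold for Ifitm3. This comparison shares the Foxo1KO arrays with the one that chose the genes, so no test is given for them. Across all genes 39.8% were called in it, 19.6% higher and 20.2% lower. Of the calls 49.2% were higher, and 60.6% after median centring.

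Foxo1KO/Foxo1AAA against Foxo1AAA compares knockout and intact cells on arrays outside the difference between Foxo1KO and WT that chose the genes. Here they were tested. The estimate of spread comes from the WT and Foxo1KO arrays, so the p-values are not independent of that choice. Earlier results of these data were also known when the genes were chosen. Ifitm2 was 1.84-fold higher (log2 difference 0.88, 95% interval 0.53 to 1.24, limma adjusted p = 0.088), Ifitm1 1.73-fold (0.79, interval 0.48 to 1.10, limma adjusted p = 0.082) and Ifitm3 1.38-fold (0.47, interval 0.10 to 0.83, limma adjusted p = 0.36). None of the 3 was called after adjustment over all genes, and 10 genes were called at all, 0.0733% of those tested, with 0.066% higher and 0.00733% lower. The share of calls that were higher was 90% here and 72.4% of 87 calls after each array was centred on its median. The unadjusted p-values from limma were 3.8e-04, 3.2e-04 and 0.018 in the same order. Ifitm2 ranked 51, Ifitm1 76 and Ifitm3 433 by size of rise. The adjusted p of Ifitm2 ranged from 0.031 to 0.17 over the alternatives and that of Ifitm1 from 0.036 to 0.16. Leaving out a WT or Foxo1KO array left the differences at 0.88 and 0.79, since those arrays enter only the shared estimate of spread. Ifitm2 and Ifitm1 were called without either WT replicate, and neither was called without either Foxo1KO replicate. Each arm is 1 array, assumed to vary like the WT and Foxo1KO pairs. All 3 differences were smaller than those between Foxo1KO and WT, and whether the 2 sets of differences are unequal was not tested.

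In Foxo1AAA against WT, Ifitm3 was 3.41-fold higher (log2 difference 1.77, SE 0.14), Ifitm1 1.97-fold (0.98, SE 0.12) and Ifitm2 1.54-fold (0.63, SE 0.14). These differences exceeded the gaps between replicates. They are given without a test because the WT arrays helped choose the genes. Across all genes 27.5% were called, 13.4% higher and 14.1% lower. Of the calls 48.8% were higher, and 69.1% after each array was centred on its median. The same order, with Ifitm3 highest above WT and Ifitm2 least, held on the Foxo1KO/Foxo1AAA array. In Foxo1KO the 3 differences from WT lay between 3.77 and 3.92.

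Markers of other cell types moved with these groups. Of the 15 measured myeloid markers, 12 were tested, and in Foxo1AAA against WT 11 of them were called higher, where 13.4% of all genes were. The summed linear value of the 15 was 1810 and 2059 in WT, 3626 and 2705 in Foxo1KO, 13906 in Foxo1AAA and 16122 in Foxo1KO/Foxo1AAA. Csf1r, the receptor that defines macrophages, read 8.36 to 9.12 on the WT and Foxo1KO arrays and 11.99 and 12.38 on the arrays with Foxo1AAA. Adgre1 read 6.64 to 7.35 against 10.18 and 10.30, and Lyz2 7.20 to 8.52 against 10.50 and 10.41. Cd14 read 5.94 to 6.10 against 7.35 and 8.84. The Ifitm genes were highest on the Foxo1KO arrays, where the myeloid sum was 3626 and 2705, above the 1810 and 2059 of WT. The part of these cells in the Ifitm values was not tested on any array. Myeloid markers were also higher in Foxo1KO than in WT, where 4 of 12 were called, among them Cebpb (1.32), Lyz1 (1.31) and Lyz2 (0.92), against 11.2% of all genes.

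The 8 measured markers of CD8 T and NK cells summed to 790 and 781 in WT and 1698 and 1756 in Foxo1KO. The sum was 1092 in Foxo1AAA and 1605 in Foxo1KO/Foxo1AAA, the same order as the Ifitm genes. The list median relative to WT stood otherwise, highest in Foxo1KO/Foxo1AAA at 1.06, with 0.99 and 0.80 in Foxo1KO and 0.29 in Foxo1AAA. In Foxo1KO against WT 5 of 8 were called higher, against 11.2% of all genes. They included Klrc1 (4.04), which encodes the receptor NKG2A, and the transcription factor Eomes (2.25). Klrd1 (1.23) and Klrk1 (0.66) were also called, but their values stood in another order than those of the Ifitm genes. Klrd1 read 6.80 and 6.43 in Foxo1KO, 8.08 in Foxo1AAA and 8.56 in Foxo1KO/Foxo1AAA. Klrk1 was highest in Foxo1KO/Foxo1AAA, at 6.91. The defining markers Cd8a and Ncr1 read 7.14 to 8.13 and 5.29 to 5.76 across the 6 arrays. Cd8b1 read 7.57 to 7.78 in WT and Foxo1KO and 8.28 and 8.69 on the arrays with Foxo1AAA. The part of such cells in the Ifitm values was not tested. The 8 measured B cell markers summed to 6280 and 7163 in WT, 5624 and 4055 in Foxo1KO, 13771 in Foxo1AAA and 11942 in Foxo1KO/Foxo1AAA. This sum was carried largely by Ighm, at 11.62 to 13.49, whose difference of -0.67 in Foxo1KO turned to 0.84 with the mean of its probe sets. The list median relative to WT was 0.22 and -0.13 in Foxo1KO, 1.10 in Foxo1AAA and 0.86 in Foxo1KO/Foxo1AAA. In Foxo1AAA 6 of the 8 lay above WT, Ms4a1 most (2.78), and 2 lay below. Cd22 rose in Foxo1KO by 0.69 (limma adjusted p = 0.0016). The part of B cells in the Ifitm values was not tested. In bulk samples, more cells of a type and more RNA per cell cannot be told apart.

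**Figure D2:**
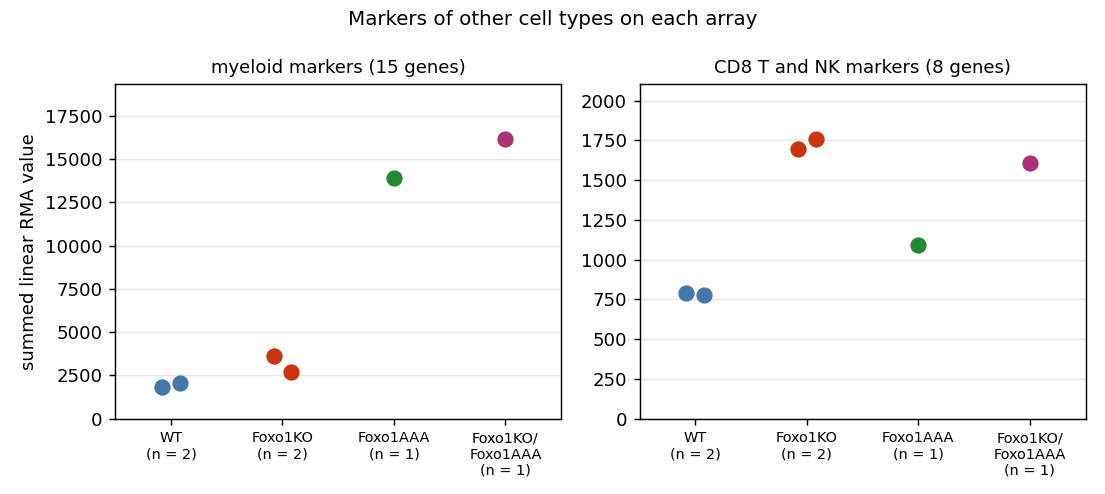
Summed linear RMA values of 15 myeloid markers (left) and 8 markers of CD8 T and NK cells (right) on each array (points), by group, on axes from 0. The myeloid sum is 13906 and 16122 on the arrays with Foxo1AAA and at most 3626 elsewhere, and the CD8 T and NK sum is highest in Foxo1KO.

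The Ifitm genes were then set against the general interferon response, for which genes induced mainly by type I interferon and genes induced strongly by interferon gamma were listed separately. In Foxo1KO against WT, 13 of 34 tested type I genes were called higher and 0 lower, where 11.2% of all genes were called higher and 10.7% lower. The median difference of the list was 0.27. Without 1 of the 4 replicated arrays, 11 or 12 were called. The median over all tested genes was 0.03. Cmpk2, a mitochondrial nucleotide kinase, rose most (2.16, limma adjusted p = 3.2e-05), then Mx1 (1.24, limma adjusted p = 3.1e-04). Next was Bst2 (tetherin), which holds budding virus at the cell surface (1.24, limma adjusted p = 1.5e-04). The lowest was Sp100 (-0.31).

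Of 20 interferon gamma response genes, 18 were called higher in Foxo1KO and 0 lower, against 11.2% and 10.7% of all genes, and the median was 0.81. Without 1 of the replicated arrays 15 to 18 were called. Iigp1, an immunity-related GTPase, rose most (2.20, limma adjusted p = 3.2e-06), followed by the transcription factor Irf8 (1.53, limma adjusted p = 3.2e-05) and the guanylate-binding protein Gbp6 (1.21, limma adjusted p = 1.2e-04). By array, the median of the list relative to WT was 0.72 and 0.80 in Foxo1KO, 0.19 in Foxo1AAA and 0.38 in Foxo1KO/Foxo1AAA. The type I list stood at 0.22 and 0.30 in Foxo1KO, 0.02 in Foxo1AAA and 0.14 in Foxo1KO/Foxo1AAA. The WT arrays themselves stood at 0.06 and -0.06 for the interferon gamma list and at 0.02 and -0.02 for the type I list. The interferon gamma list thus stood in the group order of the Ifitm genes, whereas the type I list in Foxo1AAA lay within the WT values.

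In Foxo1KO/Foxo1AAA against Foxo1KO, 15 of 34 type I genes were called lower and 3 higher (median -0.22), and 11 of 20 interferon gamma genes were called lower and 2 higher (median -0.39), where 20.2% of all genes were called lower. Cmpk2 fell by 2.05 (limma adjusted p = 1.3e-04), Mx1 by 1.00 (limma adjusted p = 0.0026) and Irf8 by 0.81 (limma adjusted p = 0.0026), whereas Bst2 differed by 0.19 (limma adjusted p = 0.34). Cxcl9, a chemokine, rose by 2.10 and read 5.97 to 7.17 in WT and Foxo1KO, 7.86 in Foxo1AAA and 9.07 in Foxo1KO/Foxo1AAA.

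In Foxo1AAA against WT 4 of 34 type I genes were called higher and 3 lower, and 6 of 20 interferon gamma genes higher and 0 lower. Across all genes 13.4% were called higher and 14.1% lower. The type I share called higher, 11.8%, was thus near that of all genes. The medians were 0.02 and 0.19. Cxcl9 rose by 1.82 (limma adjusted p = 1.9e-04). In Foxo1KO/Foxo1AAA against Foxo1AAA limma called 0 genes of either list, where 0.0733% of all genes were called. The medians were 0.11 and 0.20, and Ifitm2 (0.88) was above all 34 type I genes and below 1 interferon gamma gene, Cxcl9 (1.21). Ifitm3 (0.47) was below 1 type I gene, Bst2 (0.57), and below 3 interferon gamma genes.

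**Figure D3:**
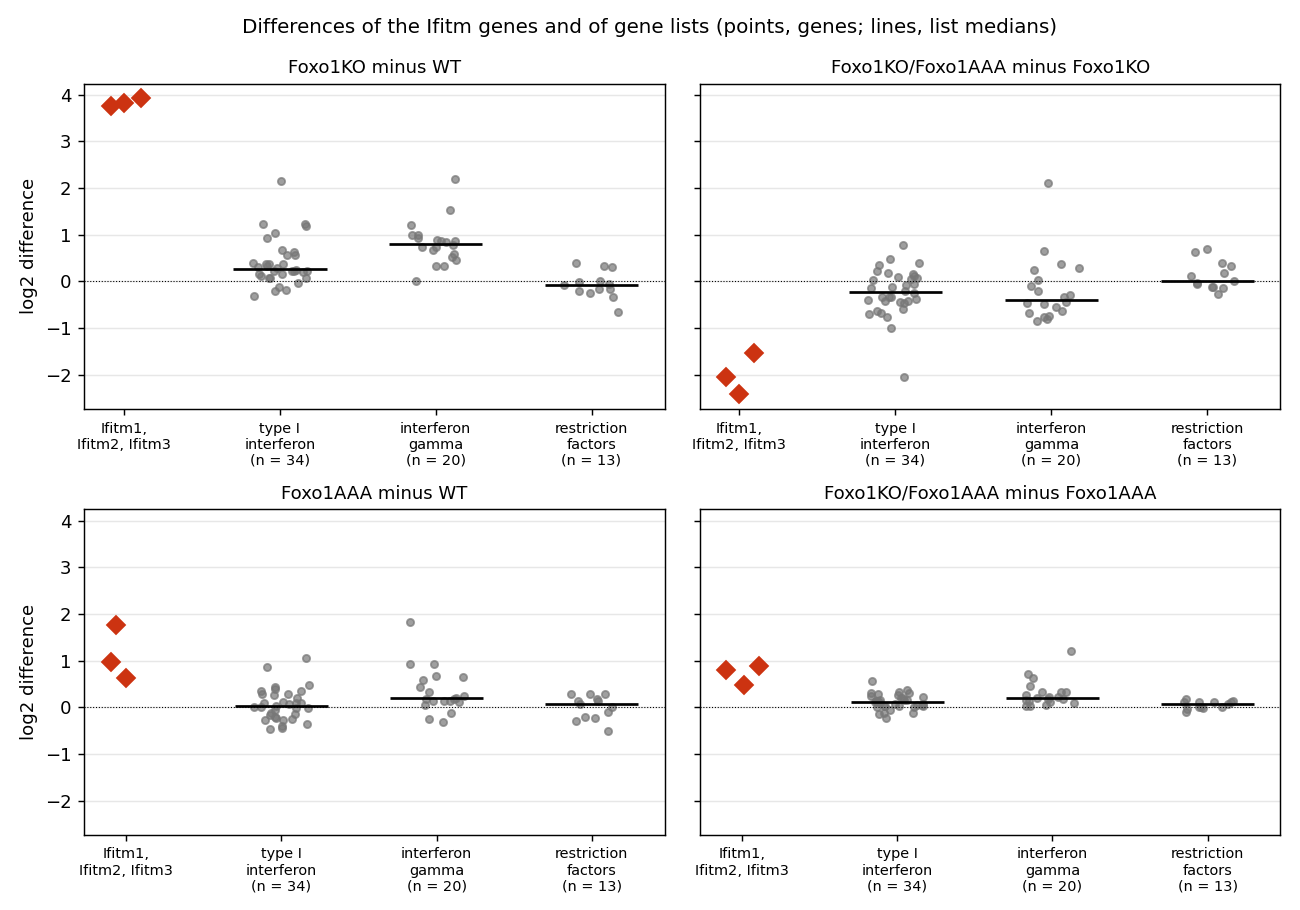
Log2 differences in 4 comparisons (panels) for Ifitm1, Ifitm2 and Ifitm3 (red diamonds) and for tested genes (grey points, lines at medians) of the type I interferon, interferon gamma and restriction factor lists; sideways scatter has no meaning. The Ifitm genes were chosen by Foxo1KO minus WT. In Foxo1KO/Foxo1AAA minus Foxo1AAA the diamonds lie at 0.47 to 0.88 and the type I and interferon gamma medians at 0.11 and 0.20.

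Among interferons, Ifng was measured at 7.06 and 6.78 in WT, 9.12 and 9.36 in Foxo1KO, 7.16 in Foxo1AAA and 8.34 in Foxo1KO/Foxo1AAA. These values stood in the same order as those of the Ifitm genes. It rose by 2.32 in Foxo1KO (limma adjusted p = 8.1e-06) and fell by 0.90 in Foxo1KO/Foxo1AAA against Foxo1KO (limma adjusted p = 0.0028). Ifnb1 and Ifna4, type I interferons, read 4.56 to 5.31 on the 6 arrays and were below the filter. Of 14 tested interferon, receptor and signalling genes, 3 were called higher in Foxo1KO and 3 lower, set against 11.2% and 10.7% of all genes. Jak2 (0.53) and the interferon gamma receptor chain Ifngr1 (0.49) rose, and the second chain Ifngr2 (-0.66), the phosphatase gene Ptpn6 (-0.58) and the kinase gene Jak1 (-0.45) fell. The Ifngr1 call ended without WT replicate 2 (limma adjusted p = 0.058) or Foxo1KO replicate 2 (0.10). The Ifngr2 call ended without Foxo1KO replicate 2 (limma adjusted p = 0.062), and the Jak1 call without WT replicate 2 (0.12), Foxo1KO replicate 1 (0.093) or Foxo1KO replicate 2 (0.067).

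Of 13 other antiviral restriction factors tested, the DNA sensor Cgas (0.40) was called higher in Foxo1KO and Slfn2 (-0.65) and the nucleotide hydrolase Samhd1 (-0.34) lower, with a median of -0.075, near the 11.2% and 10.7% of all genes called in each direction. The Cgas call ended without WT replicate 2 (limma adjusted p = 0.17), without Foxo1KO replicate 2 (0.17) and with a replicate block (0.058). The Samhd1 call was lost whichever of the WT and Foxo1KO arrays was left out (limma adjusted p = 0.069 to 0.16) and with a replicate block (0.073).

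The remaining Ifitm genes differed in pattern, though not in every comparison. Ifitm6, which adjoins Ifitm3, read 5.42 and 5.26 in WT, 6.07 and 5.72 in Foxo1KO, 7.39 in Foxo1AAA and 7.11 in Foxo1KO/Foxo1AAA. It was thus highest on the arrays with Foxo1AAA, where the myeloid markers were also highest, and the part of such cells in it was not tested. It rose by 2.04 in Foxo1AAA against WT (limma adjusted p = 7.8e-05) and by 1.22 in Foxo1KO/Foxo1AAA against Foxo1KO (limma adjusted p = 7.3e-04). Its rise in Foxo1KO against WT was 0.56 (limma adjusted p = 0.016), a call that ended without WT replicate 2 (0.47, limma adjusted p = 0.057) or Foxo1KO replicate 1 (0.38, limma adjusted p = 0.097). Ifitm5, known from bone-forming cells, read 7.02 and 7.09 in WT, 7.37 and 7.18 in Foxo1KO, 6.72 in Foxo1AAA and 6.79 in Foxo1KO/Foxo1AAA. Its difference in Foxo1KO was 0.22 and was not called (limma adjusted p = 0.18). Ifitm10 (0.27, limma adjusted p = 0.11) and Ifitm7 (-0.02, limma adjusted p = 0.91), which lies on chromosome 16, were not called in Foxo1KO either. Of 7 tested dispanin genes other than the 3, Ifitm6 was the 1 called in Foxo1KO, where 21.8% of all genes were called. In Foxo1KO/Foxo1AAA against Foxo1KO, 6 of the 7 were lower, as Ifitm1, Ifitm2 and Ifitm3 were, and Ifitm6 was higher. Ifitm7 differed there by -0.90, Ifitm5 by -0.49 and Ifitm10 by -0.27. The median of the 7 was -0.52, and that over all tested genes -0.02.

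**Figure D4:**
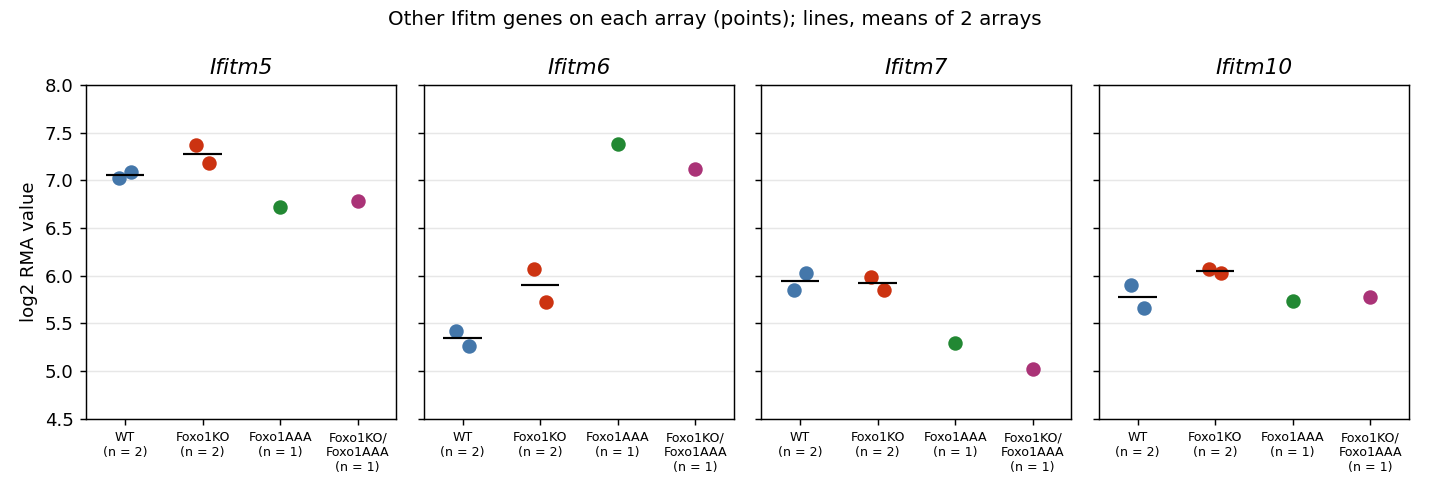
Log2 RMA values of Ifitm5, Ifitm6, Ifitm7 and Ifitm10 (panels) on each array (points), by group, with lines at the means of groups of 2 arrays. Ifitm6 is highest on the arrays with Foxo1AAA, at 7.39 and 7.11, and the highest value of Ifitm7 is 6.03, in WT.

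Of 8 tested partners and modifiers of Ifitm proteins, 1 was called higher in Foxo1KO, a share near the 11.2% of all genes, and 3 lower, where 10.7% of all genes were. Cd9, a tetraspanin, fell by 1.51 (limma adjusted p = 1.2e-05) and rose by 2.33 in Foxo1KO/Foxo1AAA against Foxo1KO (limma adjusted p = 3.7e-06). It read 9.77 and 9.78 in WT, 8.25 and 8.27 in Foxo1KO, 10.88 in Foxo1AAA and 10.59 in Foxo1KO/Foxo1AAA, lowest where the Ifitm genes were highest. Cd81, a tetraspanin that associates with Ifitm1, rose by 0.48 in Foxo1KO (limma adjusted p = 0.0059). Zdhhc20, a palmitoyltransferase of Ifitm3, fell by 0.55 and Setd7, a methyltransferase, by 0.35. The Zdhhc20 call ended without WT replicate 1 (limma adjusted p = 0.057) or Foxo1KO replicate 1 (0.093). The Setd7 call ended without WT replicate 1 (limma adjusted p = 0.19) or either Foxo1KO replicate (0.12 and 0.11), with a replicate block (0.072), and with the mean of its probe sets (0.21).

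The genes around the cluster were described next. Among the 10 protein-coding genes on each side in RefSeq order, 18 were measured and 16 tested, and 5 of these were called higher in Foxo1KO against WT and 0 lower, where 11.2% of all genes were called higher. Their differences ranged from -0.071 to 1.61, with a median of 0.21. B4galnt4, a glycosyltransferase gene beyond Ifitm6, read 8.08 and 7.87 in WT, 9.50 and 9.68 in Foxo1KO, 7.13 in Foxo1AAA and 7.90 in Foxo1KO/Foxo1AAA. It rose by 1.61 in Foxo1KO (limma adjusted p = 2.6e-05) and fell by 1.69 in Foxo1KO/Foxo1AAA against Foxo1KO (limma adjusted p = 5.4e-05). In Foxo1AAA it was below WT by 0.85 (limma adjusted p = 0.0034), unlike the 3 Ifitm genes, which were above WT there. Pkp3, the desmosomal plakophilin next to it, rose by 0.68 (limma adjusted p = 0.0030) and Psmd13, a proteasome subunit gene on the other side, by 0.59 (limma adjusted p = 0.0040). The other 2 were Ifitm6 and Pgghg (0.35, limma adjusted p = 0.027), whose call was lost whichever of the 4 replicated arrays was left out (limma adjusted p = 0.071 to 0.13) and with a replicate block (0.065).

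**Figure D5:**
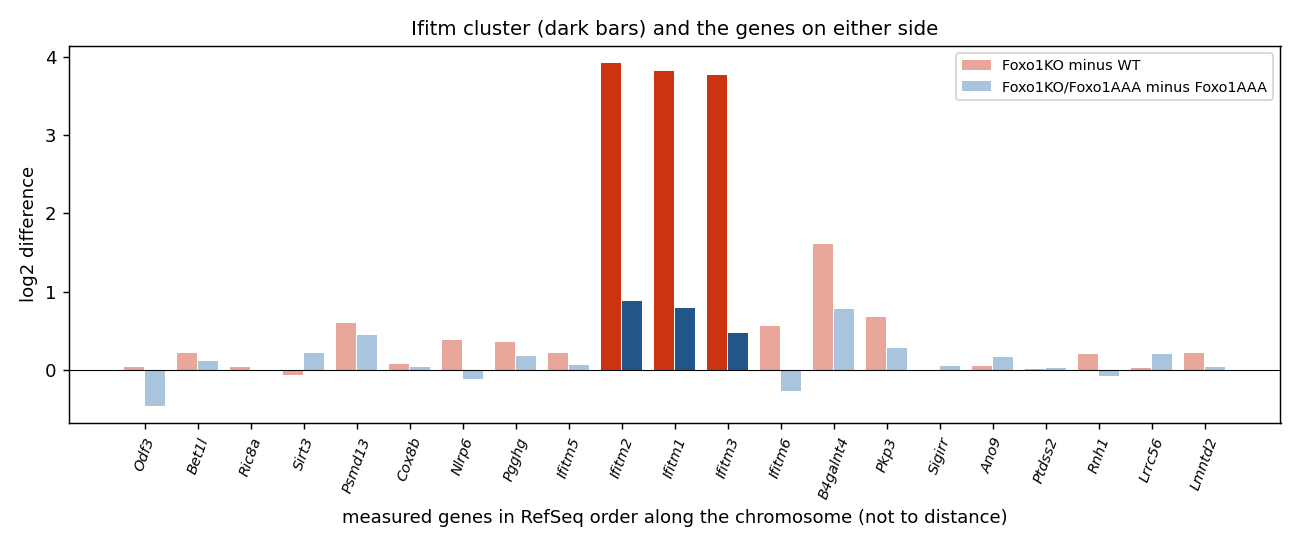
Log2 differences of the measured genes around the Ifitm cluster, in chromosome order and not to distance, for Foxo1KO minus WT (red) and Foxo1KO/Foxo1AAA minus Foxo1AAA (blue), with Ifitm2, Ifitm1 and Ifitm3 in dark bars. The Ifitm genes were chosen by their dark red bars, and among the other genes the highest red bar is B4galnt4 at 1.61.

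The likeness of the 3 profiles was measured as the root mean square distance between values on the 6 arrays, after each gene was centred on its own mean. It was 0.19 log2 units between Ifitm1 and Ifitm2, 0.34 between Ifitm1 and Ifitm3 and 0.50 between Ifitm2 and Ifitm3. The genes nearest to Ifitm1 were Ifitm2, Atp8b4 (0.20), a phospholipid-transporting ATPase gene, Havcr2 (0.28), which encodes the inhibitory receptor TIM-3, Ifitm3, and Slc15a3 (0.37), a lysosomal transporter gene. Those nearest to Ifitm2 were Ifitm1, Atp8b4 (0.22), the transcription factor gene Arnt2 (0.26), Anxa1 (0.38), a phospholipid-binding annexin, and Havcr2 (0.39). Those nearest to Ifitm3 were Slc15a3 (0.20), Havcr2 (0.29), Ifitm1, Klrc1 (0.42) and Atp8b4 (0.45). Slc15a3 read 5.95 and 5.89 in WT, 9.12 and 9.33 in Foxo1KO, 7.39 in Foxo1AAA and 7.91 in Foxo1KO/Foxo1AAA, the order of the Ifitm genes. Havcr2 stood in that order too, at 5.70 and 5.45 in WT, 8.68 and 9.34 in Foxo1KO, 6.58 in Foxo1AAA and 7.51 in Foxo1KO/Foxo1AAA. No gene of the interferon lists was among these. The largest rise in Foxo1KO was 2.16 in the type I list and 2.20 in the interferon gamma list. The Ifitm genes, chosen by this difference, rose by 3.77 to 3.92, so nothing is read from that absence. The distances rest on 6 arrays that share the same groups and are largely set by the difference between Foxo1KO and WT.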

How the data were processed

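Labelled cRNA from sorted Treg cells was read on 6 arrays. The deposited values are on the log2 scale, made by the authors with RMA, which corrects background, quantile-normalizes arrays and summarizes probe sets, as the submitters' processing notes state (R 2.15, limma 3.12.1). Quantile normalization hides a shift shared by most genes.

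Probe sets were named from the platform annotation and those with several genes (932) or none listed (9211) were left out. Each gene was represented by its brightest probe set, and the lowest 25% by mean were dropped, leaving 13645 genes. In R 4.3.3, limma 3.58.1 fitted these genes with 1 coefficient for each of 4 groups, with two-sided tests and Benjamini-Hochberg adjusted p under 0.05. The only replicate spread was that of the WT and Foxo1KO pairs, with 2 residual degrees of freedom. The number of arrays limits the precision. The code was tested on simulated data.

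The genes and lists were chosen with earlier results of these data known. Named genes were the 3, the other dispanins, the 3 largest called changes of each list, neighbours and nearest profiles. Alternatives comprised filters, probe set summaries, variance priors, median centring, a replicate block and leaving out each replicate. No scanner files were used.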

Additional observations from a re-analysis of the deposited data

Results flagged for a closer look

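For 5 genes flagged here the knockout difference had opposite signs without and with Foxo1AAA. Both Foxo1KO arrays lay to 1 side of both WT arrays, and the Foxo1KO/Foxo1AAA array lay to the other side of the Foxo1AAA array. Other genes met this rule too, among them Lyz1 (1.31 and then -0.0375) and Cd22 (0.69 and then -0.10). The share of all tested genes that meet it was not counted, so nothing is read from the number. The difference between the 2 contrasts was not tested, and the second rests on 1 array in each arm. Ifitm6 was higher by 0.56 in Foxo1KO than in WT, and differed by -0.27 between Foxo1KO/Foxo1AAA and Foxo1AAA. Mx1 differed by 1.24 and then by -0.12, and Jak2 by 0.53 and then by -0.016. Zdhhc20 differed by -0.55 and then by 0.087, and Samhd1 by -0.34 and then by 0.012. None of these second differences was called by limma (adjusted p = 0.74 for Ifitm6, 0.94 for Mx1, 0.99 for Jak2, 0.96 for Zdhhc20 and 0.99 for Samhd1). Those of Jak2, Zdhhc20 and Samhd1 were near 0 and changed sign under at least 1 alternative, reaching 0.0051, -0.0415 and -0.0714.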

How the results depend on the processing

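The differences of Ifitm1, Ifitm2 and Ifitm3 kept their direction in all 4 comparisons under the 12 alternatives. In Foxo1KO against WT they ranged from 3.76 to 3.87 for Ifitm1, 3.79 to 4.05 for Ifitm2 and 3.65 to 3.89 for Ifitm3. In Foxo1KO/Foxo1AAA against Foxo1AAA, Ifitm1 (0.75, limma adjusted p = 0.045) and Ifitm2 (0.85, limma adjusted p = 0.043) were called after each array was centred on its median. Both were also called without either WT replicate, but not without either Foxo1KO replicate, at unchanged differences of 0.79 and 0.88. Those arrays enter this comparison only through the estimate of spread. Calls over all genes in that comparison numbered 10, but 73 with no filter, 3 with the lowest 50% left out, 41 with the mean of probe sets, 38 with a robust prior, 30 with a variance trend, 87 with median centring, 25 with every probe set and 7 to 91 without 1 replicate. In Foxo1KO against WT 2980 genes were called, 6187 with every probe set and 2014 to 2334 without 1 replicate. In Foxo1KO/Foxo1AAA against Foxo1KO 5430 were called, 3423 with the lowest 50% left out, 13826 with every probe set and 3853 to 5525 without 1 replicate. In Foxo1AAA against WT 3758 were called, 2236 with the lowest 50% left out, 10647 with every probe set and 2775 to 3503 without 1 replicate. The settings with every probe set tested 45101 features, and the stricter filter 9097 genes. The causes of the other changes were not tested. In Foxo1KO against WT 10 to 18 genes or probe sets of the type I list and 15 to 22 of the interferon gamma list were called. With the lowest 50% left out, the share of calls that were higher went from 49.2% to 66.2% in Foxo1KO/Foxo1AAA against Foxo1KO and from 48.8% to 67.1% in Foxo1AAA against WT. The alternatives for the interferon gamma list were added after seeing the data.

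The replicate numbers were not taken to pair the arrays: over 2 pairs, deviations of same-numbered WT and Foxo1KO arrays correlated at -0.096. Same-numbered arrays did share the presence or absence of Eif2s3y. A replicate block gave 2458 calls in Foxo1KO against WT and 21 in Foxo1KO/Foxo1AAA against Foxo1AAA, and it called none of the 3 Ifitm genes there (limma adjusted p = 0.12, 0.11 and 0.57). Dim values, such as Ifitm2 in WT, limit the size that could be measured.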
